A study of Homo sapiens with 12 samples.

Results

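The replication-dependent histone genes were read from CUT&RUN peaks of H3K27me3 and H3K4me3 in MKL-1. This cell line was grown from a Merkel cell carcinoma, a neuroendocrine skin cancer, and is positive for the Merkel cell polyomavirus. In CUT&RUN, an antibody guides a nuclease that releases the DNA it is bound to. Members were the protein-coding genes on chromosomes 1 and 6 of the GRCh38.p14 gene table whose symbols are H1- plus a number or start with H2AC, H2BC, H3C or H4C. The rule took 68 of 19970 coding genes on chromosomes 1 to 22 and X, made up of 6 H1, 17 H2A, 18 H2B, 13 H3 and 14 H4 genes, and used no measured value. One group of cultures received 3 µM EPZ011989, which inhibits EZH2, the enzyme that methylates H3K27, and the other the 1% ethanol vehicle, both for 6 days with fresh agent on day 3. All cultures were of this cell line with no other allele or agent named, treatments were in duplicate, and each culture was divided among antibodies to H3K27me3, to H3K4me3 and control IgG, giving 12 libraries in 6 groups of 2. The spread between replicates therefore covers repeated treatment and library making and not different tumours.

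These genes make the bulk of new histones while DNA is copied. They are short, mostly lack introns, sit in clusters at an S-phase compartment called the histone locus body, and yield mRNAs that end in a stem-loop in place of a poly(A) tail. H3K4me3 is the methylation found at active and poised gene starts. H3K27me3 is written by EZH2 in Polycomb repressive complex 2 and lies over silenced genes. In testis, some members serve only germ cells.

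For each gene and library, the cover is the count of bases inside that library's peaks within 2500 bp of either gene end, without scaling between libraries. A gene is called marked when a peak overlaps this window by 1 bp or more. H3K4me3 libraries held 23106 and 21086 peaks with EPZ011989, against 22726 and 23804 with vehicle. H3K27me3 libraries held 363 and 22 peaks with EPZ011989, against 40782 and 44287 with vehicle. Read depth was not analysed here. A background solved from the peak lists ran at 1.48 and 1.24 fragments per base for H3K4me3 with EPZ011989, against 0.572 and 0.857 with vehicle, and at 0.373 and 0.148 for H3K27me3 with EPZ011989, against 1.12 and 1.63 with vehicle. All 12 Merkel cell carcinoma markers carried H3K4me3 in all 4 libraries. Among markers of other cell types, DCN, CDH5, COL1A1 and COL1A2 also did, and PTPRC, CD3E, KRT5, KRT14, TP63 and PECAM1 had none.

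Promoter sequences are shown for 7 members named in the results, whose cover was counted from peaks and not from sequence. H2BC17 and H1-4 stand for well-marked genes, H2BC1 for the unmarked testis genes, H2AC14 and H4C2 for the largest negative differences in H3K4me3, and H3C8 and H2BC10 for the genes with H3K27me3 in both vehicle libraries. Each runs from 250 bases before to 50 bases after the start in RefSeq on GRCh38.p14, 5′ to 3′ along the gene. Capitals mark 5 motifs on either strand, namely the TATA box TATAAA, the CCAAT box CCAAT, the octamer ATTTGCAT bound by POU2F1 at H2B genes, the E2F-type site TTTCGCGC, and the H1 box AAACACA.
H2BC17 (chr6:27893175-27893474, plus strand): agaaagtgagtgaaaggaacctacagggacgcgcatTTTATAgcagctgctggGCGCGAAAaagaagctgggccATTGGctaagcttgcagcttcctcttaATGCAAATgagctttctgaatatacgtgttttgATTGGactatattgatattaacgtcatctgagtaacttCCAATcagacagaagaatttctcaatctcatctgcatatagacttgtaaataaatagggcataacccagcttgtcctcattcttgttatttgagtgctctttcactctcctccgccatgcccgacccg
H2BC1 (chr6:25726527-25726826, plus strand): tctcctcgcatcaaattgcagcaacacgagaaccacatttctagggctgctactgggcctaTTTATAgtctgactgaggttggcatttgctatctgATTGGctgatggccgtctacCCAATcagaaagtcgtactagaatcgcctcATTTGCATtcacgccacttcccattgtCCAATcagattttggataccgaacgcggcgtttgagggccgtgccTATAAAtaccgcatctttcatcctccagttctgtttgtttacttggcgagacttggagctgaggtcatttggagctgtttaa
H1-4 (chr6:26156079-26156378, plus strand): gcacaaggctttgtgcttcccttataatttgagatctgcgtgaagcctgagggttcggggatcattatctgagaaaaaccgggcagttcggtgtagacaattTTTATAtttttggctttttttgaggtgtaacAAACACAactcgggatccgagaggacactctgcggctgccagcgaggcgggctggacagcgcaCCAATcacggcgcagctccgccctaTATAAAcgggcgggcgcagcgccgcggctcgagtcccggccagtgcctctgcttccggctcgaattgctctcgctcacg
H2AC14 (chr6:27814728-27815027, minus strand): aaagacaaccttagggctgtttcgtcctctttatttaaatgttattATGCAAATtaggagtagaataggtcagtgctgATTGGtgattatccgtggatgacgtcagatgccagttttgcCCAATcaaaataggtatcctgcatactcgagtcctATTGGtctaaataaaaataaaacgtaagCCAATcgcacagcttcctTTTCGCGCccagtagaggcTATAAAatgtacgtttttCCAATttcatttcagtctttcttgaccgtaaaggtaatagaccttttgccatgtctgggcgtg
H4C2 (chr6:26027234-26027533, minus strand): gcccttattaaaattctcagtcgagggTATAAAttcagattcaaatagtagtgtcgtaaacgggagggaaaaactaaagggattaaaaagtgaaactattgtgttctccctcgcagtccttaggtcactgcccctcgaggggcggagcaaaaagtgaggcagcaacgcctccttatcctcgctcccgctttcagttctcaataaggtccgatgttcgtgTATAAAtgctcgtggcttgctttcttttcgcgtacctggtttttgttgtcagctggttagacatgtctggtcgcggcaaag
H3C8 (chr6:26271364-26271663, minus strand): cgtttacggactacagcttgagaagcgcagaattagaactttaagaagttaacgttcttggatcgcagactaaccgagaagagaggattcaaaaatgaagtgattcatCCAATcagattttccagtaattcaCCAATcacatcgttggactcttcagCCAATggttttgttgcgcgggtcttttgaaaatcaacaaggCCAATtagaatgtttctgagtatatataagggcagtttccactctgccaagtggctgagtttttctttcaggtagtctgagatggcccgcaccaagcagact
H2BC10 (chr6:26272681-26272980, plus strand): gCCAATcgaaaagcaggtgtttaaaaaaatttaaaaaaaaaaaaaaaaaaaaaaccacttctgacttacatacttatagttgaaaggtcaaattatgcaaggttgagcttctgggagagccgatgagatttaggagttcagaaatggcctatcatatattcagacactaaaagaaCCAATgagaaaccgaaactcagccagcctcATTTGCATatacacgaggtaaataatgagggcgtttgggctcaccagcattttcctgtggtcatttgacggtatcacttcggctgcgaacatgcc

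Motif content followed the histone family. RefSeq promoter windows were at hand for 63 of the 68 members; H4C1, H4C3, H2AC12, H3C11 and H3C12 are named only. CCAAT was present at 54 of 63 members, against 34.6% of all 35116 promoter windows. It was found at all 6 H1, 16 H2A, 18 H2B and 11 H3 genes with a window, and at 3 of 12 H4 genes. TATAAA was present at 42 of 63 members, against 11.5% of all windows. The octamer stood at 14 of 18 H2B genes and 11 of 16 H2A genes, and at 1 H3 gene, 0 H1 genes and 0 H4 genes, against 1.77% of all windows. The H1 box stood at 6 of 6 H1 genes and at 9 of 63 members in all, against 5.64% of all windows. The E2F-type site stood at 12 of 63 members, against 0.515%. Windows of an H2A and an H2B gene that share a divergent promoter overlap, so such genes are counted on partly shared bases. A match describes letters in this window and is not evidence of binding.

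The members lay in 5 clusters, taking a gap of over 500 kb as a break. Cluster 1, on chromosome 1 from 149782689 to 149887965, held 11 members in 105 kb. Cluster 2, on chromosome 1 from 228457364 to 228458558, was the pair H2AC25 and H2BC26. Cluster 3, on chromosome 6 from 25726063 to 26285534, held 34 members in 559 kb, with 5 other coding genes among them. Cluster 4, on chromosome 6 from 27132316 to 27147562, held 5 members in 15.2 kb. Cluster 5, on chromosome 6 from 27807479 to 27893891, held 16 members in 86.4 kb. Windows of neighbours overlap, and merged they span 267.849 kb, so members that share a peak are not independent measurements.

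**Figure D1:**
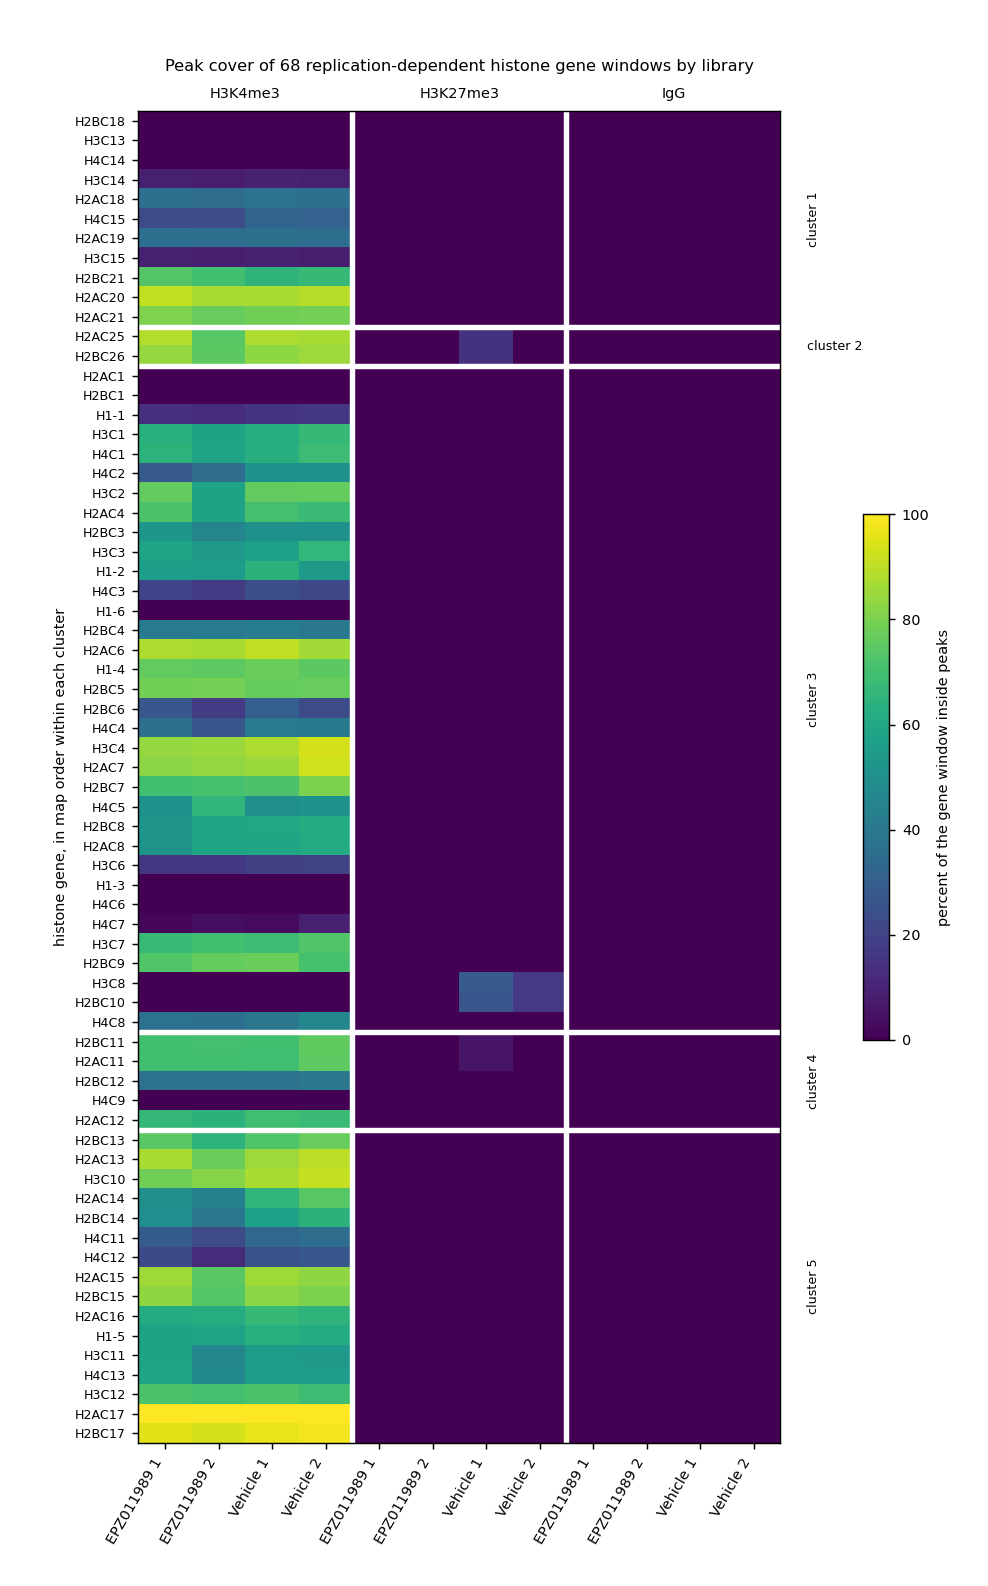
Each row is 1 of the 68 histone genes in map order, each column 1 of the 12 libraries, and the colour is the percent of the gene's window inside peaks. H3K4me3 fills most rows alike in EPZ011989 and vehicle libraries, H3K27me3 appears at 6 genes in vehicle libraries and at 0 with EPZ011989, and IgG is 0 throughout.

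H3K4me3 was present at most histone genes with either treatment. Of the 68 members, 57 (83.8%) were marked in all 4 H3K4me3 libraries, against 64.4% of all coding genes. In both vehicle libraries alone, the same count of 57 stood against 65.0% of all genes. Histone genes are short, and among coding genes of at most 1000 bp the contrast was wider, with 50 of 60 members marked in both vehicle libraries against 19.7% of the 524 such genes, members included. Not 1 member was marked in both EPZ011989 and neither vehicle library, or the reverse, against 0.921% and 0.140% of all genes. IgG peaks touched 0 members in any library.

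The peaks lay on the genes themselves. A H3K4me3 peak overlapped the gene body of 50 members in all 4 libraries, and for 41 of them the whole body lay inside peaks in all 4. H2BC3 had a body peak in 3 libraries. For 6 members, H3C14, H2AC18, H2AC19, H3C15, H1-1 and H4C7, a peak reached the window but not the body. H3C14 and H3C15, and H2AC18 and H2AC19, are mirrored copies described below, whose reads cannot be told apart. The part of this in where their peaks end was not tested. The fold of a peak over its local background, the authors' MACS2 value, was not unusual within its own list, with the median member peak at percentile 49.7 and 46.6 in the EPZ011989 lists and 56.9 and 59.7 in the vehicle lists. The peaks were wide, with a median of 3194 and 3167 bp with EPZ011989, against list medians of 1697 and 1609 bp. With vehicle they measured 3182 and 3125 bp, against 1453 and 1354 bp.

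Many peaks joined neighbouring histone genes. Of the peaks over member bodies, 18 of 31 and 17 of 31 reached 2 or 3 members with EPZ011989, against 18 of 32 and 18 of 33 with vehicle. They held 78.4% and 76.0% of the members with a body peak in the EPZ011989 libraries, against 31.8% and 30.9% of the coding genes with a body peak, counted when that peak reached another coding gene. In the vehicle libraries the share was 78.4% in both, against 31.4% and 31.7%. Peaks with 3 members covered H3C12, H2AC17 and H2BC17 and also H2BC13, H2AC13 and H3C10 in cluster 5, H3C4, H2AC7 and H2BC7 in cluster 3, and H2BC21, H2AC20 and H2AC21 in cluster 1. Of 11 H2A and H2B pairs transcribed away from each other, with 193 to 247 bp between the genes, 10 had that gap wholly inside peaks in all 4 libraries. The exception was H2AC1 and H2BC1, which encode the testis forms of H2A and H2B and had no peak in any library.

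**Figure D2:**
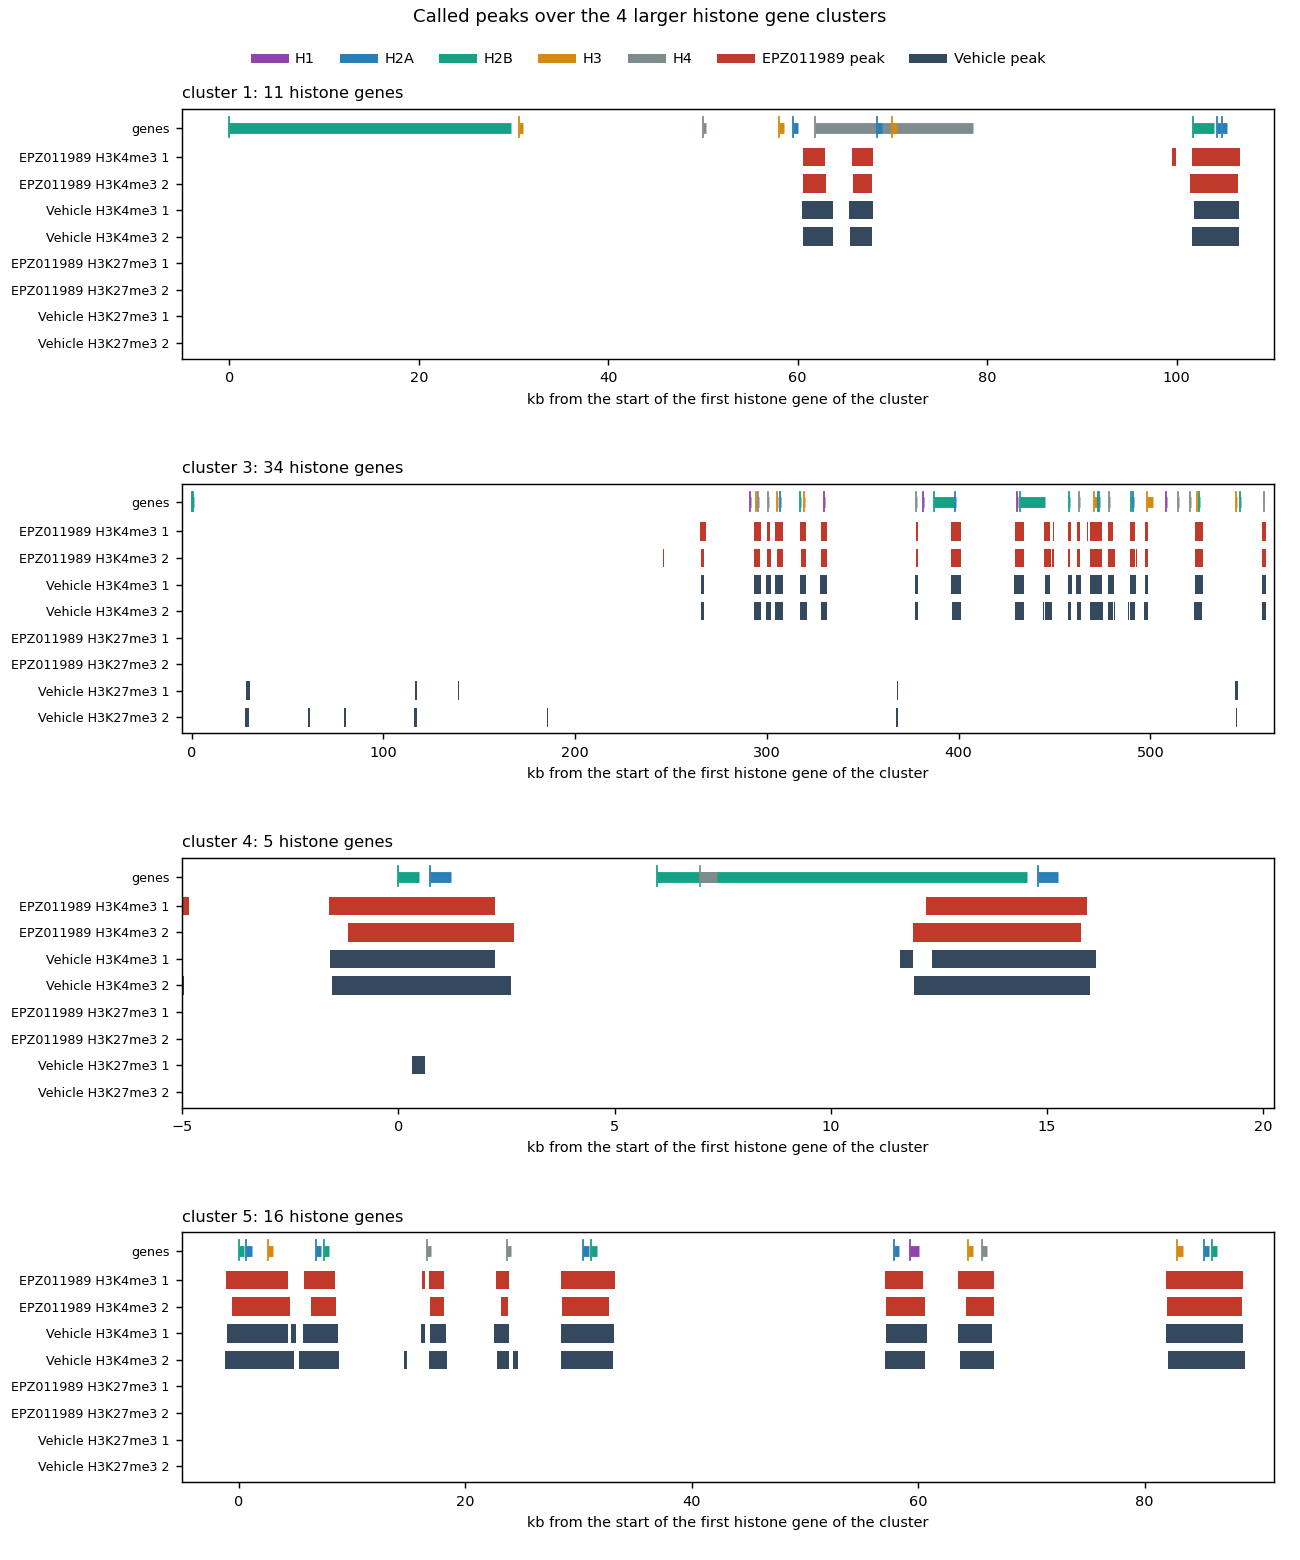
Bars are called peaks along the 4 larger clusters, in kb from the first histone gene, with EPZ011989 libraries above vehicle libraries for each mark and gene spans coloured by family on top. H3K4me3 blocks sit over groups of genes in every library, and the few H3K27me3 bars are in vehicle libraries.

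In cluster 5 all 16 members were marked for H3K4me3. Peaks covered 29.6% and 26.7% of its span with EPZ011989, against 31.2% and 31.6% with vehicle. In cluster 1 they covered 8.15% and 7.87% with EPZ011989, against 8.74% and 8.63% with vehicle, and 8 of 11 members were marked. In cluster 3 they covered 9.92% and 9.59% with EPZ011989, against 10.2% and 10.4% with vehicle, and 27 of 34 members were marked. Its first pair, H2AC1 and H2BC1, is set far apart from the rest, with solute carrier genes between. In cluster 2 both genes lay wholly inside peaks in all 4 libraries. In cluster 4, 4 of 5 members were marked, and peaks covered 34.7% and 39.5% of the span with EPZ011989, against 35.5% and 38.9% with vehicle. The exception there, H4C9, lies inside the long annotated body of H2BC12.

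Cover varied by family, with H2A and H2B genes at the top. The median over all genes of a family of the mean cover in 4 libraries was 3914 bp for H2B, 3901 bp for H2A and 3233 bp for H3, and 2058 bp for H1 and 1792 bp for H4. Median windows were 5399 to 5766 bp. As a percent of the window the medians were 71.0% for H2A, 63.4% for H2B, 58.9% for H3, 35.9% for H1 and 28.9% for H4. Genes within a family ranged widely, and every family included members with no peak. Windows of divergent H2A and H2B pairs overlap and share peaks, so the same bases enter both of these medians.

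**Figure D3:**
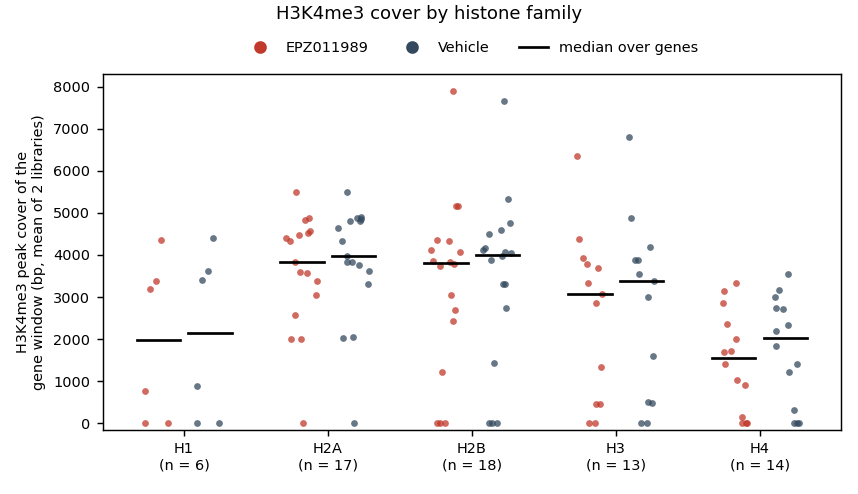
Points are histone genes, given as the mean H3K4me3 cover in bp of the 2 EPZ011989 libraries at left and of the 2 vehicle libraries at right within each family, and lines are medians over genes. The H2A medians are 3829 bp with EPZ011989 and 3973 bp with vehicle, the H4 medians 1560 bp with EPZ011989 and 2024 bp with vehicle, and each family has a wide range.

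Among single genes, H2BC5 had the most covered bases, at 7880 and 7919 bp with EPZ011989, against 7636 and 7684 bp with vehicle. Its annotated body is long, so its window is 10002 bp, and the mean cover was 77.8% of it. H3C4 followed with 6323 and 6370 bp with EPZ011989, against 6599 and 7021 bp with vehicle, 87.6% of its window. H2AC17 was covered over its whole window of 5487 bp in all 4 libraries, so a further gain there could not have been seen. H2BC17, its divergent partner, had 5214 and 5112 bp with EPZ011989, against 5259 and 5381 bp with vehicle. In the promoter sequences above, H2BC17 shows the octamer, the E2F-type site and 3 CCAAT boxes. H1-4, the somatic linker histone gene with the most cover, had 4389 and 4346 bp with EPZ011989, against 4495 and 4318 bp with vehicle, and its groups overlapped. H2BC21, an H2B gene of cluster 1 also known for polyadenylated mRNA, had 5298 and 5050 bp with EPZ011989, against 4691 and 4833 bp with vehicle.

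The least cover above 0 was at H4C7, with 85 and 200 bp with EPZ011989, against 153 and 497 bp with vehicle, a peak edge reaching into its window. H3C15 had 476 and 454 bp with EPZ011989, against 501 and 455 bp with vehicle. H3C14 had 483 and 429 bp with EPZ011989, against 531 and 480 bp with vehicle. Both encode H3.2, and groups overlapped at H3C15 and at H3C14. These values need care, since the genes lie in mirrored copies on chromosome 1. The promoter windows of H3C14 and H3C15 matched at 296 of 296 aligned bases, those of H2AC18 and H2AC19 at 299 of 299, and those of H4C14 and H4C15 at 300 of 300. Reads from such copies cannot be told apart, and how the authors treated reads with several matches is not given in the sources used here. H1-1, a somatic linker histone gene, had 796 and 746 bp with EPZ011989, against 867 and 905 bp with vehicle, so its groups did not overlap. H4C3 had 1077 and 964 bp with EPZ011989, against 1298 and 1144 bp with vehicle, again without overlap.

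No H3K4me3 peak reached the windows of 11 members (16.2%) in any of the 4 libraries, against 30.9% of all genes. They include the testis genes H2AC1, H2BC1 and H1-6, the last of which encodes the testis linker histone. The others were H1-3, a somatic linker histone gene, H4C6, H3C8 and H2BC10 of cluster 3, H4C9 of cluster 4, and H2BC18, H3C13 and H4C14 of cluster 1. H4C14 is among the mirrored copies named above, whose reads cannot be told apart. The part of this in its lack of a peak was not tested. Of these 11, 10 held CCAAT, 4 held TATAAA and 4 held the octamer. Of the 52 members with a window and H3K4me3, 44 held CCAAT, 38 held TATAAA and 22 held the octamer. The H2BC1 sequence above holds 3 CCAAT boxes, 2 TATA boxes and 1 octamer, and the gene carried no peak of either mark.

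H3K27me3 was scarce at histone genes. In both vehicle libraries 2 of 68 members (2.94%) were marked, H3C8 and H2BC10, against 36.9% of all genes. Among genes of at most 1000 bp, the background was 19.8%, against 2 of 60 members. Both marks together, in both vehicle libraries of each, were found at 0 members, against 24.2% of all genes. Neither mark in any of the 8 libraries was found at 9 members (13.2%), against 18.8% of all genes.

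H3C8, an H3.1 gene, had 0 and 0 bp of H3K27me3 with EPZ011989, against 1571 and 920 bp with vehicle. H2BC10 had 0 and 0 bp with EPZ011989, against 1441 and 920 bp with vehicle. The values come from 1 peak in each vehicle library, at positions 26270301 to 26271871 of chromosome 6 in replicate 1 and 26270465 to 26271384 in replicate 2. In replicate 1 the peak covers the whole body of H3C8 and the promoter sequence printed above, and in replicate 2 it stops just inside the start of the gene. It ends short of the H2BC10 promoter printed above and touches only that gene's wider window. H3C8 and H2BC10 also had no H3K4me3 in any library, so H3K27me3 was seen in both vehicle libraries only at members lacking H3K4me3. The peak was weak by the authors' values, with a fold of 3.13 and a −log10 q of 1.91 in vehicle replicate 1 and a fold of 3.20 and a −log10 q of 2.34 in vehicle replicate 2.

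A further 4 members had H3K27me3 in vehicle replicate 1 alone. The pair H2AC25 and H2BC26 had 0 and 0 bp with EPZ011989, against 808 and 0 bp with vehicle. The pair H2BC11 and H2AC11 had 0 and 0 bp with EPZ011989, against 310 and 0 bp with vehicle. All 4 genes carried H3K4me3 in every H3K4me3 library. Every H3K27me3 peak at a member had a −log10 q under 4. Over the merged windows of all members, H3K27me3 covered 0 kb in both EPZ011989 libraries and 1.80 ± 1.25 kb with vehicle (SD, n = 2), with an exact two-sided permutation p of 0.333, the smallest possible.

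With EPZ011989, H3K27me3 fell at 1 of the 6 tested members, H2BC10, by limma across all genes, against 60.2% of the 9600 genes tested. Its difference was −1180.5 bp (SE 232, adjusted p = 0.0379). H3C8, at −1245.5 bp (SE 290), had an adjusted p of 0.0532, and the other 4 members had 0.361. H2BC10 and H3C8 share the same vehicle peak, so the call at H2BC10 alone turned on where its window cut the replicate 1 peak. With windows of 5000 bp both genes had −1245.5 bp and an adjusted p of 0.0543 by limma. At an unadjusted p under 0.05 the count was 2 of 6, against 64.1% of all genes. By limma, 0 of 9600 genes were called higher (0.0%), also at an unadjusted p under 0.05. Members entered this test only through vehicle peaks, so a negative difference was fixed for each of them. The call at H2BC10 was lost with windows of 5000 bp (adjusted p = 0.0543), with no filter (0.103) and without EPZ011989 replicate 1 (0.189) or replicate 2 (0.190). The call was also lost with a replicate block (adjusted p = 0.0835). With quantile normalization the difference was 510.9 bp, of the opposite sign (adjusted p = 0.128). The lower H3K27me3 background of the EPZ011989 libraries, given above, moves with this result, and its part was not tested.

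H3K4me3 cover was slightly lower with EPZ011989 over the histone genes as a whole. Over the merged windows it was 101.069 ± 3.79 kb with EPZ011989 and 109.275 ± 0.904 kb with vehicle (SD, n = 2 each), a difference of −8.206 kb or −7.51%. With windows of 1000 bp the difference was −4.0325 kb. The libraries gave 103.752 and 98.386 kb with EPZ011989, against 108.636 and 109.914 kb with vehicle, so the groups did not overlap. An exact two-sided permutation test gave p = 0.333, the smallest that 2 against 2 libraries allow. Each cluster had the same direction, from −0.2825 kb in cluster 4 to −3.9725 kb in cluster 3, and in cluster 5 the change was −10.5%. In cluster 2 the groups overlapped, at 4.877 and 4.080 kb with EPZ011989, against 4.823 and 4.785 kb with vehicle. The whole peak lists on chromosomes 1 to 22 and X, inside and outside genes, covered 46.1 and 39.0 Mb with EPZ011989, against 41.0 and 42.0 Mb with vehicle, groups that overlap.

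Gene by gene, no member passed the test. By limma, 0 of 57 members were called lower and 0 higher, as were 0 of 13793 genes in each direction (0.0% and 0.0%). At an unadjusted p under 0.05, 4 members were lower, against 1.48% of all genes, and 0 were higher, against 8.41%. The 4 were H2AC14, H4C2, H2BC14 and H4C15, the last through a peak at the far end of its annotated gene and not at its start. With no filter on genes without peaks, where 19970 genes enter, H2AC14 and H4C2 were called lower (adjusted p = 0.00315 and 0.0317). That fit called 32 of all genes lower and 491 higher.

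With windows reaching 2500 bp, most histone genes had a lower mean with EPZ011989. The mean was lower with EPZ011989 at 48 of 57 members (84.2%), against 41.7% of all genes. The median difference over members was −213 bp, against 52 bp over all genes. With windows of 1000 bp the mean was lower at 26 of 53 members, and the median difference was 0 bp over members and over all genes. Both EPZ011989 values lay below both vehicle values at 21 of 57 members (36.8%), against 12.7% of all genes. They lay above at 2 (H2BC5 and H2BC21), against 24.4%. At H2BC5 this came from the far end of its long annotated body, and the H3K4me3 region at its start was lower. The count below was 11 with windows of 1000 bp. With fewer values to order, it was 42 without EPZ011989 replicate 1 and 24 without EPZ011989 replicate 2. It was 33 without vehicle replicate 1 and 32 without vehicle replicate 2. The share over all genes was not counted under these settings, so these counts have no background. Genes with vehicle H3K27me3 weigh on the background, so the shares were also read over the 6610 tested genes with no vehicle H3K27me3 peak. Among those, the mean was lower at 44 of 53 members, against 55.5%, both EPZ011989 values lay below at 21 of 53, against 18.4%, and above at 2 of 53, against 12.6%. Since members share peaks, counts were repeated over H3K4me3 regions, made by merging the peaks of the 4 libraries. Of 38 regions at member windows, 16 had both EPZ011989 values below both vehicle values (42.1%), against 11.9% of 30981 regions, and 1 had both above, against 15.9%. Among regions of 2000 bp or more, where most member regions fall, the count below was 13 of 26, against 15.6%.

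The size of this shift depended on the EPZ011989 replicate. Between EPZ011989 replicate 1 and the vehicle replicates, the median member difference was −59 bp and −109 bp, while all genes stood at 203 and 177 bp. Between EPZ011989 replicate 2 and the vehicle replicates it was −229 and −301 bp, while all genes stood at −50 and −79 bp. In each of the 4 pairings, which reuse the same 4 libraries, the members' median was thus below that of all genes. Over genes with no vehicle H3K27me3 peak the medians were nearer, at 94.5 and 75 bp for EPZ011989 replicate 1. For EPZ011989 replicate 2 they were −161 and −185 bp. The H3K4me3 background was higher in the EPZ011989 libraries, at 1.48 and 1.24 fragments per base against 0.572 and 0.857 with vehicle, and its part in the result was not tested.

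**Figure D4:**
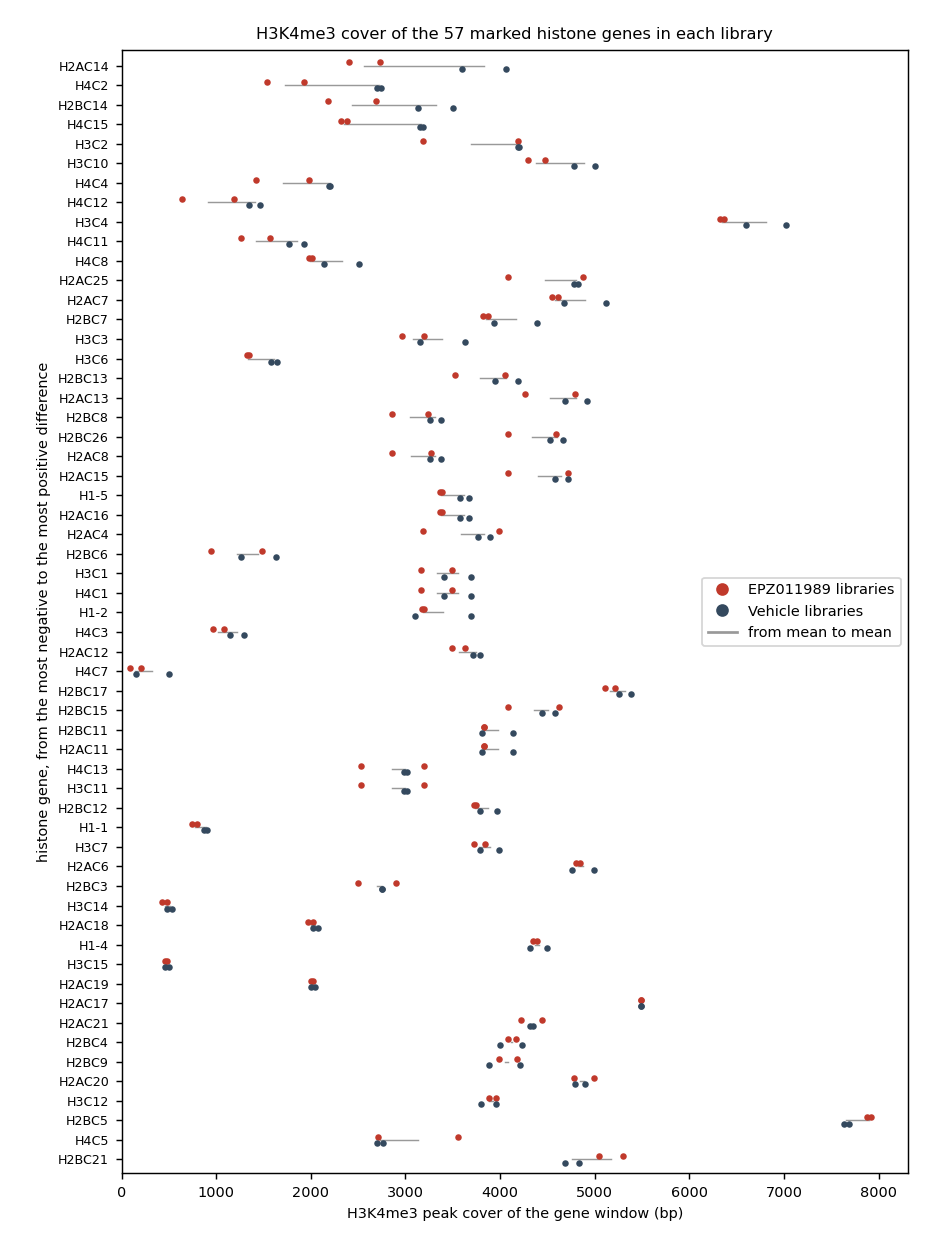
Points give H3K4me3 cover in bp of each of the 57 marked histone genes in the 2 EPZ011989 and 2 vehicle libraries, ordered by the difference of means, with a line from mean to mean. The differences run from −1262.5 bp at H2AC14 to 412 bp at H2BC21, and at 21 genes both EPZ011989 points lie left of both vehicle points.

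With windows reaching 2500 bp and all libraries, the largest difference was at H2AC14, an H2A gene of cluster 5, with 2726 and 2406 bp with EPZ011989, against 3597 and 4060 bp with vehicle. The difference was −1262.5 bp (SE 254, adjusted p = 0.218), and the groups did not overlap. H2BC14, its divergent partner, shares the peak and had 2687 and 2178 bp with EPZ011989, against 3134 and 3504 bp with vehicle. Its difference of −886.5 bp (SE 270, adjusted p = 0.391) is therefore no separate measurement. With windows of 1000 bp the differences were −280.5 bp at H2AC14 and −303 bp at H2BC14. The promoter of H2AC14 shown above holds 5 CCAAT boxes, 1 octamer and 1 E2F-type site.

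H4C2, an H4 gene of cluster 3 whose promoter sequence above holds 0 CCAAT boxes, had 1532 and 1922 bp with EPZ011989, against 2739 and 2699 bp with vehicle. The difference was −992 bp (SE 219, adjusted p = 0.260). It exceeded that of H2AC14 with windows of 5000 bp (−1670 against −1262.5 bp), with windows of 1000 bp (−623.5 bp) and without EPZ011989 replicate 2 (−1187 against −1102.5 bp). H4C15, in the mirrored copies of cluster 1, had 2323 and 2381 bp with EPZ011989, against 3182 and 3153 bp with vehicle, a difference of −815.5 bp (SE 192, adjusted p = 0.284). With windows of 1000 bp it was 0 bp. This annotated gene is on the minus strand, starting at 149861240 and ending at 149844488. Its counted cover came from the peak at that far end, which also reaches the windows of H2AC18 and H3C14. No H3K4me3 peak reached the part of its window at the start. The groups did not overlap at either H4 gene, and none of these differences passed the test. H3C2 was next at −506 bp, with 4187 and 3188 bp with EPZ011989, against 4187 and 4200 bp with vehicle. There EPZ011989 replicate 1 equalled vehicle replicate 1, and replicate 2 alone was low.

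In the other direction the differences were smaller. H2BC21 had the largest, at 412 bp (SE 269, adjusted p = 0.737), with both EPZ011989 values above both vehicle values as given above. H4C5 had 2710 and 3560 bp with EPZ011989, against 2704 and 2762 bp with vehicle, a difference of 402 bp (adjusted p = 0.797) carried by EPZ011989 replicate 2, and without that replicate it was −23 bp. H2BC5 differed by 239.5 bp, H3C12 by 40 bp and H2AC20 by 37.5 bp, all with an adjusted p above 0.9. At H2BC5 the H3K4me3 region at its start was lower, with 4942 and 4853 bp with EPZ011989, against 5250 and 5078 bp with vehicle. The region at its far end had 3354 and 3669 bp with EPZ011989, against 3005 and 3604 bp with vehicle. By family, both EPZ011989 values lay below both vehicle values at 7 of 11 tested H4 genes, 5 of 15 H2B and 4 of 16 H2A genes. The H4 count includes H4C15, whose counted peak is not at its start. The counts were 3 of 11 for H3 and 2 of 4 for H1. The share was 12.7% over all genes and 18.4% over genes with no vehicle H3K27me3 peak. Members share peaks and the families are small, so these counts cannot show whether families differ, which was not tested. The family medians of the difference ran from −156 bp for H2B to −334 bp for H4.

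Cover by distance from the start, which was not among the planned results, was read at 3 positions. Members that share a peak are not independent there. At 63 members with a known strand, the share of starts inside a peak 125 bp downstream of the start was 68.3% and 66.7% with EPZ011989, against 68.3% and 68.3% with vehicle. At 1125 bp downstream it was 61.9% and 54.0% with EPZ011989, against 68.3% and 66.7% with vehicle. At 1975 bp upstream it was 34.9% and 31.7% with EPZ011989, against 36.5% and 42.9% with vehicle, where the nearest libraries differ by 1 gene, 22 with EPZ011989 against 23 with vehicle. Over 15812 genes, the share at 1125 bp downstream was 52.8% and 47.3% with EPZ011989, against 48.2% and 48.4% with vehicle, so there the groups overlapped. They also overlapped at 1975 bp upstream, where 1444 and 1087 of these genes were covered with EPZ011989, against 1202 and 1267 with vehicle.

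**Figure D5:**
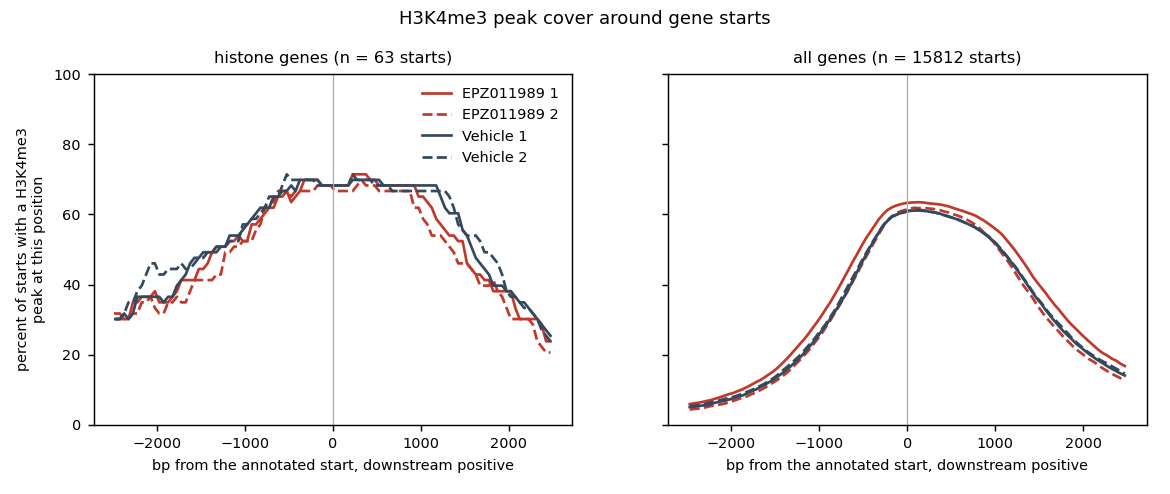
Lines give the percent of gene starts inside a H3K4me3 peak by distance from the start in bp, for 63 histone genes at left and 15812 genes at right, per library. The lines meet near the start, and at histone genes the EPZ011989 lines lie under the vehicle lines about 1000 to 1500 bp downstream.

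Genes that work with the histone genes were read from lists. Of 27 factors of histone gene transcription and mRNA processing, such as the octamer-binding factor POU2F1, all 27 carried H3K4me3 in all 4 libraries. Of them 7 had H3K27me3 in both vehicle libraries, against 36.9% of all genes. Of the 14 tested for H3K27me3, 4 were called lower with EPZ011989 and 0 higher, against 60.2% lower among all genes tested. One of these was ZNF473, which binds the U7 snRNP of histone mRNA processing, with 0 and 0 bp of H3K27me3 with EPZ011989, against 3726 and 3455 bp with vehicle (−3590.5 bp, adjusted p = 0.000981). Another was SYMPK, the scaffold of the cleavage complex, with 0 and 0 bp with EPZ011989, against 3114 and 2934 bp with vehicle (−3024 bp, adjusted p = 0.000609). Of 20 histone chaperones and related genes, 20 carried H3K4me3, 3 had H3K27me3 in both vehicle libraries, and 1 of the 8 tested was called lower, against the same backgrounds. This was NAP1L4, a nucleosome assembly protein gene, with 0 and 0 bp of H3K27me3 with EPZ011989, against 394 and 350 bp with vehicle (−372 bp, adjusted p = 0.00325). UBN2, of the HIRA chaperone complex, had 0 and 0 bp with EPZ011989, against 3317 and 5621 bp with vehicle. It missed the threshold (adjusted p = 0.0516). ZNF473, SYMPK, NAP1L4 and UBN2 entered this test only through vehicle peaks, so a negative difference was fixed for each. With 0 bp in both EPZ011989 libraries, the spread at these genes came from the vehicle values alone. In H3K4me3 these lists had 0 calls in either direction. With windows reaching 2500 bp their median differences were −62.5 and −72.5 bp, against −213 bp at the replication-dependent members, which share peaks. With windows of 1000 bp the members' median was 0 bp, and the lists were not read at that width.

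Histone genes outside the rule include variants that cells make outside S phase. Of 28 found by symbol, 11 carried H3K4me3 in all 4 libraries, and their median difference was −42.5 bp with 0 calls. H3-3B, which encodes the variant H3.3, had 6567 and 4934 bp with EPZ011989, against 4273 and 4928 bp with vehicle (1150 bp, adjusted p = 0.637). H2AX, the variant phosphorylated at DNA breaks, had 4445 and 4264 bp with EPZ011989, against 4470 and 5022 bp with vehicle (−391.5 bp, adjusted p = 0.777). H2BK1 had no H3K4me3 and had 0 and 0 bp of H3K27me3 with EPZ011989, against 4391 and 4073 bp with vehicle (−4232 bp, adjusted p = 0.000968). H2BK1 entered the H3K27me3 test only through vehicle peaks, so its negative difference was fixed. It was the 1 gene called for H3K27me3 of 6 tested in the list, against 60.2% of all genes tested. Of the 28, 3 had H3K27me3 in both vehicle libraries, against 36.9%.

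Within the clusters lie 7 other coding genes, and of these only TRIM38 carried H3K4me3. In cluster 3 the solute carrier genes SLC17A4 and SLC17A3, which stand between H2BC1 and the other members, had H3K27me3 in both vehicle libraries. SLC17A4 had 0 and 0 bp with EPZ011989, against 1709 and 1939 bp with vehicle (−1824 bp, adjusted p = 0.00292). SLC17A3 had 0 and 0 bp with EPZ011989, against 1104 and 1150 bp with vehicle (−1127 bp, adjusted p = 0.000438). Both were called lower, a direction fixed because they entered the test only through vehicle peaks. No H3K4me3 appeared at either gene. Further vehicle H3K27me3 peaks of cluster 3 lay elsewhere between its members. Among the members of cluster 3, H3K27me3 was found at H3C8 and H2BC10, which had no H3K4me3.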

How the data were processed

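Each library has 1 deposited peak list, with hg38 as its build. MACS2 2.1.1.20160309, SAMtools 0.1.19, Bowtie2 2.2.9 and FastQC are named in the submitters' processing notes, without roles. Thresholds, control library, duplicates and spike-in use are not given in the sources used here. H3K4me3 and IgG lists are in the authors' narrow format and H3K27me3 lists in the broad one. Each deposited peak carries a fold (a ratio to local background), a −log10 p, a −log10 q and a score that the authors' caller derives from the q-value. No read counts are given, so depth is unknown. The background per base was solved from the most frequent fold in each list and its −log10 p under a Poisson model. Values are the authors' peaks, and a change in what was called cannot be told apart from a change in the mark.

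Gene positions are from RefSeq GRCh38.p14. Peaks were merged within a library, and covered bases were counted within 2500 bp of both gene ends. The gene table gives no strand, so strand and promoter sequences came from the RefSeq promoter table. Per mark, genes reached by a peak in any of the 4 libraries were compared with limma 3.58.1 (trend, robust; R 4.3.3), with Benjamini-Hochberg adjustment over all genes tested and a threshold of 0.05. The deposited values carry no scaling between libraries and none was added. Python 3.11.15, pandas 2.3.3 and numpy 2.4.6 were used. The scripts were tested on simulated data. Named genes were the members with any H3K27me3, the 5 highest and 5 lowest in mean H3K4me3, the 5 largest differences in each direction, and up to 5 per other list by vehicle H3K27me3 or by H3K4me3 difference. The members, lists and tests were chosen with earlier results of these data known. Alternatives were windows of 1000 and 5000 bp, peaks with a −log10 q of at least 4, an overlap of 500 bp, no filter, quantile normalization, a replicate block, and each replicate left out.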

Additional observations from a re-analysis of the deposited data

How the results depend on the processing

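Peak lists without read counts limit these results, since a peak missed at low depth and a peak absent look the same, and 2 libraries a group allow no exact p under 0.333. Same-numbered H3K4me3 libraries did not deviate together (correlation −0.030). For H3K27me3 the correlation was 0.016, but with 363 and 22 peaks in the EPZ011989 libraries it could not show pairing. The replicate numbers were not taken as pairs. With a replicate block, H3K27me3 calls were 4555 lower, 0 members were called lower (H2BC10 had an adjusted p of 0.0835), and H3K4me3 calls stayed at 0. For H3K27me3, the genes called lower, 5783, became 3678 with peaks of −log10 q 4 or more and 3599 with quantile normalization, which also called 3309 higher. Leaving out a replicate gave 3209 to 8884 lower and 0 to 7 higher; without a vehicle replicate the spread came from the near-empty EPZ011989 libraries alone. The unfiltered H3K27me3 fit used limma without its robust option. The 1 member called lower, H2BC10, became 0 with windows of 1000 or 5000 bp, with peaks of −log10 q 4 or more, with no filter and with quantile normalization, and 0 to 6 with a replicate left out. Quantile normalization turned the 6 members' H3K27me3 differences to 872.3 bp (H2AC25 and H2BC26), 477.6 bp (H3C8), 510.9 bp (H2BC10) and 1013.4 bp (H2BC11 and H2AC11), and called 4 of them higher (adjusted p = 0.0430 for H2AC25 and H2BC26, 0.00522 for H2BC11 and H2AC11). For H3K4me3, genes called lower numbered 4 with windows of 1000 bp, 32 with no filter and 7 with quantile normalization. Genes called higher numbered 2 and 35 with windows of 1000 and 5000 bp, 491 with no filter and 89 with quantile normalization, and members called lower numbered 2 with no filter. Quantile normalization moved the median H3K4me3 difference of all genes to −40.5 bp and that of members to −286.8 bp. With a replicate left out, H4C5 ranged from −23 to 827 bp, H3C12 from −38 to 118 bp and H2AC20 from −69 to 144 bp. Members with H3K27me3 in both vehicle libraries numbered 1 with windows of 1000 bp, 0 with peaks of −log10 q 4 or more, and 2 to 6 with a vehicle replicate left out. The H3K27me3 difference over merged windows became 0 kb with peaks of −log10 q 4 or more, and the H3K4me3 difference −4.0325 kb with windows of 1000 bp. The 21 members with both EPZ011989 H3K4me3 values below both vehicle values became 11 with windows of 1000 bp and 24 to 42 with a replicate left out. These alternatives were added after the data were seen, and the share over all genes was not counted under them. Where no cause is named, the cause was not tested. Of 149 repeats for 16 named members, 126 neither changed sign nor crossed the threshold, differences of 0 included.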
